A study of Mus musculus with 8 samples.

Results

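The early and late genes of the neutrophil granule program, 10 of the 24902 gene symbols in the count matrix, were followed in B-cell preparations from the spleens of 8 diseased mice of transgenic leukemia models. They were listed by name, with earlier results of these data known, and no threshold on their values was used. The early class held Elane, Mpo, Prtn3 and Ctsg, which encode azurophil granule proteins. The late class held Camp, Ltf, Ngp and Lcn2, which encode specific granule proteins, and S100a8 and S100a9, which encode abundant cytosolic proteins. In all, 4 mice were Eµ-PRMT5, carrying human PRMT5 driven by an immunoglobulin heavy chain promoter and Eµ enhancer that act in B cells (transgene Eµ-hPRMT5). A further 3 were Eµ-PRMT5/TCL1, the cross that carries this transgene and human TCL1 together (Eµ-hPRMT5/hTCL1), and 1 was Eµ-TCL1 (Eµ-hTCL1). All were labelled strain C57BL/6N and, per the study's methods, were taken when they met the criteria for removal because of disease. Their ages are not given in the labels, and nontransgenic controls were not analysed here. The title of Eµ-PRMT5 mouse 2 carries an identifier that the methods give to a founder of the transgenic line. B cells were enriched with a pan-B isolation kit, 1 library was made per mouse, and a value is therefore 1 animal.

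Neutrophils fill their granules in order as they mature. Promyelocytes in the marrow make the azurophil granule proteases and myeloperoxidase, then switch these genes off, and myelocytes and metamyelocytes make the specific granule proteins in their turn. Because the messages follow each other in time, the balance of the classes is commonly read as a measure of how far granulocytic cells have matured. PU.1 and C/EBP family factors, with RUNX1, are well known regulators of these genes.

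The libraries held 3356297 to 10252426 counts, and 13173 genes had a value in all 8 libraries and passed the expression filter, the 10 granule genes among them. The smallest granule gene count was 10, for Ctsg in Eµ-PRMT5 1. Levels are given as CPM, counts scaled to the size of the library with TMM factors. The labelled cell type was present in each library: Cd79a, a part of the B-cell receptor, ranged from 411 to 2115 CPM. It was lowest in Eµ-PRMT5 4, which also had the highest sum of 8 proliferation genes, 3071 CPM against 158 to 1251 CPM in the other mice. In bulk RNA, fewer cells of a type and less RNA per cell cannot be told apart.

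All 10 genes are protein coding and their positions are given in GRCm38 with GENCODE vM21. Prtn3 (chr10:79874476-79883174, plus strand) and Elane (chr10:79886247-79888215, plus) are neighbours with 3.07 kb and 0 genes between them. S100a8 (chr3:90668978-90670035, plus) and S100a9 (chr3:90692632-90695721, minus) lie 22.6 kb apart, also with 0 genes between. Camp (chr9:109847379-109849617, minus), Ngp (chr9:110419747-110423012, plus) and Ltf (chr9:111019271-111042767, plus) share chromosome 9, Camp 570 kb from Ngp and Ngp 596 kb from Ltf. Mpo is at chr11:87793581-87804413 (plus), Ctsg at chr14:56099881-56102574 (minus) and Lcn2 at chr2:32384633-32388252 (minus). Exons of Prtn3 overlap the antisense gene Plppr3 and exons of Mpo overlap Gm11505. Use of strand in the counting is not given in the sources used here, so reads of these overlaps cannot be assigned with certainty.

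The promoters of the classes were searched for motifs of these factors. The windows run from 250 bases before to 50 bases after the RefSeq start (GRCm38.p6), and all 10 genes matched. RefSeq starts need not be the outer ends of the GENCODE genes given here. Windows were searched on both strands for GAGGAA, a core bound by PU.1, TTGCNNAA, a C/EBP core, and TGTGGT, a RUNX core; these motifs do not contain each other. GAGGAA was in 4 of 4 early and 3 of 6 late promoters, and in 28.1% of the 32544 promoters in the table. TTGCNNAA was in 0 of 4 early promoters and in 4 of 6 late promoters (Ltf, Ngp, Lcn2 and S100a9), against 10.8% of all promoters. TGTGGT was in 1 early (Ctsg) and 2 late promoters (Ltf and S100a9), against 16.7%. Elane and Prtn3 are shown for the PU.1 match of the early class, Ngp for the C/EBP match of the late class and Camp as a late promoter without a match. Each is written 5′ to 3′ on the gene's own strand with matches in capitals.
Elane, chr10:79886062-79886361, plus: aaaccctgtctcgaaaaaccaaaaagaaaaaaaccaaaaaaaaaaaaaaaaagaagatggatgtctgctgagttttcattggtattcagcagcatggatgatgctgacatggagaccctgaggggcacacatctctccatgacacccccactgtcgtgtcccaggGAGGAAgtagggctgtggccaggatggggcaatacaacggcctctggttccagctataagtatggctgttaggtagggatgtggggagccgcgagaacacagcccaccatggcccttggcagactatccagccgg
Prtn3, chr10:79879417-79879716, plus: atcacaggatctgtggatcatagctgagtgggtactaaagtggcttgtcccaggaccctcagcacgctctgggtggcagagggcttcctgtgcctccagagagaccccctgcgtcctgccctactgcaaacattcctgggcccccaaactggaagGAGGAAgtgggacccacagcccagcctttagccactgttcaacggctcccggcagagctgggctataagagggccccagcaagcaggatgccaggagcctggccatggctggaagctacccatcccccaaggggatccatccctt
Ngp, chr9:110419558-110419857, plus: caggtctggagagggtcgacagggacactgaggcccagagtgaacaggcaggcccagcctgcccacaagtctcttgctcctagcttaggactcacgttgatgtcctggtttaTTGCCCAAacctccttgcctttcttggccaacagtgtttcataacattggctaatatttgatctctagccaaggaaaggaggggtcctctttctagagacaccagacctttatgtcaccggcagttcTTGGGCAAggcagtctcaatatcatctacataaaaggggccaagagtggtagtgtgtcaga
Camp, chr9:109849407-109849706, minus: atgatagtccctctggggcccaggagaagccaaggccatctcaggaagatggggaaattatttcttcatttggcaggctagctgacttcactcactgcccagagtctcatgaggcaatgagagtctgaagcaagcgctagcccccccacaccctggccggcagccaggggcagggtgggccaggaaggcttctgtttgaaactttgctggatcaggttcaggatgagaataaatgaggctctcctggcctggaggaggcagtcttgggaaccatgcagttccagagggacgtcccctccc
The capitals mark GAGGAA in Elane, with its first base 85 bases before the start, and in Prtn3, 95 bases before it. In Ngp they mark both C/EBP matches, which begin 138 and 11 bases before the start. Camp held none of these motifs, although its levels followed those of Ngp more closely than those of any other granule gene. A match is a run of letters and not a measured binding site.

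The early genes were expressed over a wide range. Elane encodes neutrophil elastase, a serine protease. In Eµ-PRMT5 mice 1 to 4 it stood at 121, 18.2, 39.0 and 459 CPM. In Eµ-PRMT5/TCL1 mice 1 to 3 it stood at 900, 413 and 57.8 CPM, and in the Eµ-TCL1 mouse at 34.6 CPM. Eµ-PRMT5/TCL1 1 was highest and Eµ-PRMT5 2 lowest, 49.4-fold apart, and the replicated groups overlapped.

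Mpo encodes myeloperoxidase, which makes hypochlorous acid. Its levels were 361, 51.8, 161 and 997 CPM across Eµ-PRMT5 mice. They were 3498, 1476 and 181 CPM in Eµ-PRMT5/TCL1 mice and 109 CPM for Eµ-TCL1. The highest and lowest mice were those of Elane, here 67.6-fold apart. Prtn3, which encodes proteinase 3, the autoantigen of vasculitis with cytoplasmic antibodies, had 30.6, 4.75, 6.38 and 154 CPM across Eµ-PRMT5 mice. It had 368, 142 and 17.7 CPM in Eµ-PRMT5/TCL1 mice and 4.60 CPM for Eµ-TCL1, which was the lowest.

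Ctsg encodes cathepsin G, another granule serine protease. Its levels were 2.03, 3.96, 2.96 and 77.9 CPM across Eµ-PRMT5 mice. They were 172, 59.5 and 8.14 CPM in Eµ-PRMT5/TCL1 mice and 7.03 CPM for Eµ-TCL1. Ctsg parted from the other early genes in Eµ-PRMT5 1, which had 596 counts of Elane and 10 of Ctsg. That mouse was in the middle of the range for Elane and last for Ctsg.

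The late genes covered a narrower range in another order of mice. Ngp encodes neutrophilic granule protein, of the cystatin and cathelicidin family, and had 1366, 1051, 106 and 1930 CPM across Eµ-PRMT5 mice. It had 2316, 1602 and 194 CPM in Eµ-PRMT5/TCL1 mice and 226 CPM for Eµ-TCL1. Eµ-PRMT5 3, Eµ-PRMT5/TCL1 3 and the Eµ-TCL1 mouse were far below the others, so each replicated group held high and low mice. Camp encodes cathelicidin, an antimicrobial peptide precursor. It had 212, 124, 18.7 and 271 CPM across Eµ-PRMT5 mice, 341, 253 and 30.7 CPM in Eµ-PRMT5/TCL1 mice and 40.8 CPM for Eµ-TCL1.

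Ltf encodes lactoferrin, which binds iron. It had 235, 434, 45.6 and 332 CPM across Eµ-PRMT5 mice, 818, 612 and 79.8 CPM in Eµ-PRMT5/TCL1 mice and 70.0 CPM for Eµ-TCL1. Lcn2 encodes lipocalin 2, which binds bacterial siderophores. It had 46.5, 59.5, 3.19 and 107 CPM across Eµ-PRMT5 mice, 101, 59.3 and 12.1 CPM in Eµ-PRMT5/TCL1 mice and 10.5 CPM for Eµ-TCL1. Eµ-PRMT5 3 was the lowest mouse for both genes, though Eµ-PRMT5 2 and the Eµ-TCL1 mouse were below it for Mpo.

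S100a8 and S100a9 encode the chains of calprotectin, the main cytosolic calcium-binding protein of neutrophils, and monocytes make them too. S100a8 had 161, 228, 17.3 and 640 CPM across Eµ-PRMT5 mice, 427, 311 and 43.5 CPM in Eµ-PRMT5/TCL1 mice and 49.5 CPM for Eµ-TCL1. S100a9 had 167, 184, 26.2 and 435 CPM across Eµ-PRMT5 mice, 329, 247 and 38.3 CPM in Eµ-PRMT5/TCL1 mice and 51.4 CPM for Eµ-TCL1. For both genes Eµ-PRMT5 4 was highest, while Eµ-PRMT5/TCL1 1 was highest for Ngp, Camp and Ltf.

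**Figure D1:**
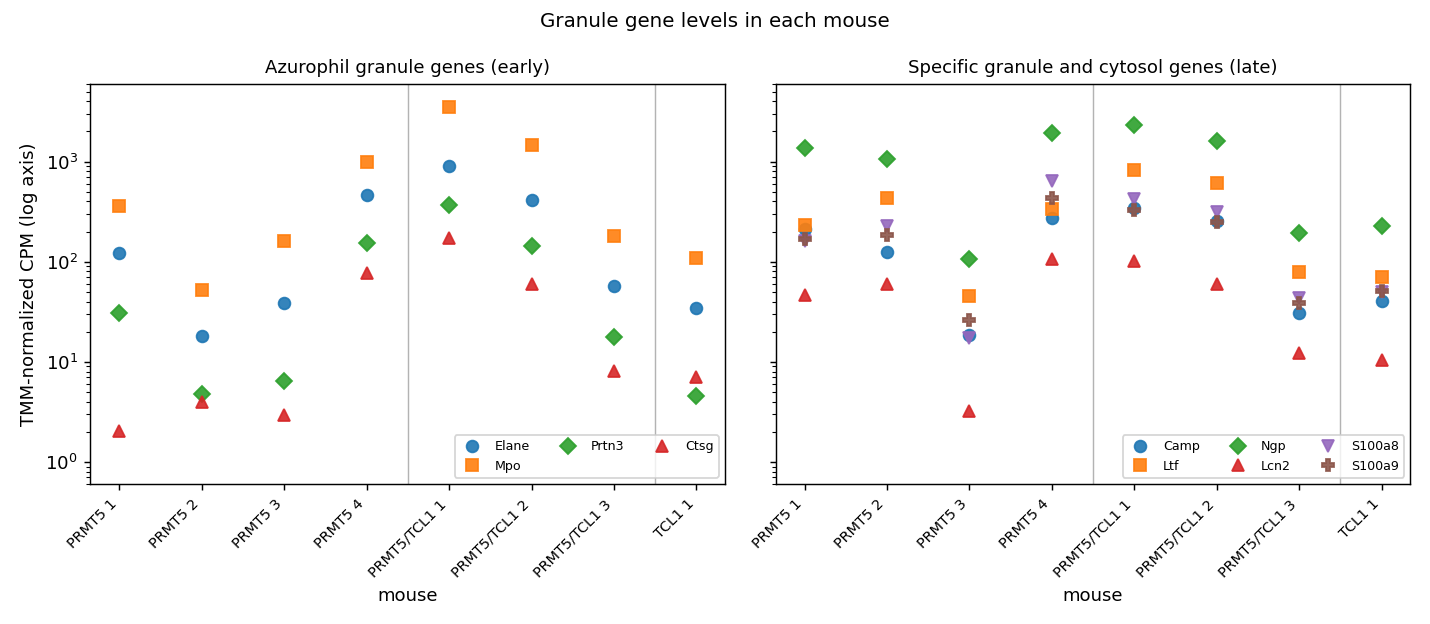
TMM-normalized CPM (vertical, log axis) of the 4 early genes (left) and 6 late genes (right) in each of 8 mice (horizontal), 1 point per gene and mouse, with grey lines between groups. The classes are low in different mice: Eµ-PRMT5 2 is low on the left (Elane 18.2 CPM) and high on the right (Ngp 1051 CPM), while Eµ-PRMT5 3 is low on the right (Ngp 106 CPM).

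Per kilobase of annotated exon, Ngp had the highest median level of the 10 genes over the 8 mice, 989 CPM per kb. S100a9 (336), S100a8 (280) and Camp (222 CPM per kb) followed. Elane, Ltf and Mpo lay close together at 90.8, 82.2 and 79.1 CPM per kb. Lcn2 (20.2), Prtn3 (13.9) and Ctsg (7.34 CPM per kb) were lowest. Every one of these genes varied by more than most genes did. The SD of log2 CPM among Eµ-PRMT5 mice had a median of 1.96 over the 10 genes and of 0.66 over all 13173 genes. Among Eµ-PRMT5/TCL1 mice the medians were 1.91 and 0.36, and all 10 genes were above the all-gene median in both groups.

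Summed over the class, the early genes made 514, 78.7, 209 and 1688 CPM across Eµ-PRMT5 mice, 4938, 2090 and 265 CPM in Eµ-PRMT5/TCL1 mice and 156 CPM for Eµ-TCL1. The late genes made 2188, 2080, 217 and 3716 CPM across Eµ-PRMT5 mice, 4332, 3084 and 398 CPM in Eµ-PRMT5/TCL1 mice and 449 CPM for Eµ-TCL1. The early sum thus differed 62.8-fold and the late sum 19.9-fold between the highest and lowest mouse. Both sums were highest in Eµ-PRMT5/TCL1 1, but the early sum was lowest in Eµ-PRMT5 2 and the late sum in Eµ-PRMT5 3. Together the 10 genes made between 0.0469% and 0.907% of a library's counts.

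Comparisons of single mice show how the classes separated. Eµ-PRMT5 1 and 2 had nearly the same late sum, 1.05-fold apart, while their early sums were 6.54-fold apart. Eµ-PRMT5 2 had 9.57-fold more late message than Eµ-PRMT5 3, which had 2.66-fold more early message. Eµ-PRMT5/TCL1 2 and 3 differed 7.90-fold in the early and 7.75-fold in the late sum, so that both classes were scaled alike in this pair.

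**Figure D2:**
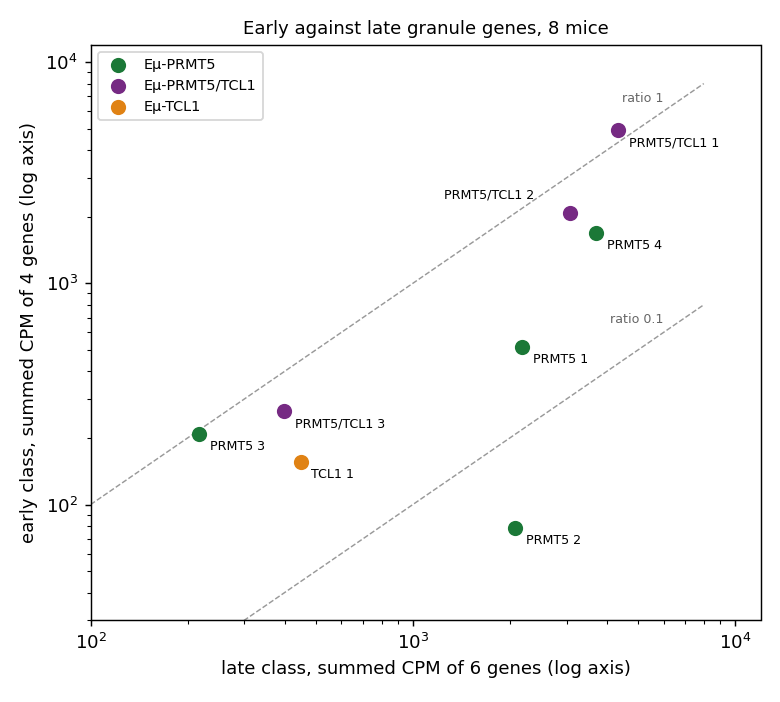
Summed CPM of the 4 early genes (vertical, log axis) against that of the 6 late genes (horizontal, log axis), 1 point per mouse, with dashed lines at early to late ratios of 1 and 0.1. Eµ-PRMT5 2 is the only mouse under the 0.1 line (78.7 against 2080 CPM), and Eµ-PRMT5 3 and Eµ-PRMT5/TCL1 1 are near the line of equal sums at opposite ends of the range.

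The early to late ratio, the quotient of the class sums in CPM, ranged 30.1-fold. In Eµ-PRMT5 mice it was 0.235 (95% Wilson interval 0.225 to 0.246), 0.0378 (0.0346 to 0.0414), 0.964 (0.881 to 1.06) and 0.454 (0.446 to 0.463). In Eµ-PRMT5/TCL1 mice it was 1.14 (1.12 to 1.16), 0.678 (0.664 to 0.692) and 0.665 (0.625 to 0.706), and in the Eµ-TCL1 mouse 0.347 (0.316 to 0.382). These intervals cover counting error only. They can be too narrow even for that, since reads without molecular identifiers are not independent molecules. Of all pairs of mice, only Eµ-PRMT5/TCL1 2 and 3 had intervals that overlapped. The order of mice was not that of either sum: Eµ-PRMT5 3, with the least late message, had the second highest ratio.

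Between groups, the ratio was 0.423 ± 0.399 (SD, n = 4) in Eµ-PRMT5 mice and 0.827 ± 0.271 (SD, n = 3) in Eµ-PRMT5/TCL1 mice. On the log2 scale the group means differed by 1.68, which is smaller than the SD of 2.00 among Eµ-PRMT5 mice, while the SD among Eµ-PRMT5/TCL1 mice was 0.44. It was 0.77 without Eµ-PRMT5 2 and 2.33 without Eµ-PRMT5 3. The groups overlapped, because the ratio of Eµ-PRMT5 3 lay inside the range of the Eµ-PRMT5/TCL1 mice. The spread within groups was unequal, 25.5-fold over 4 Eµ-PRMT5 mice and 1.72-fold over 3 Eµ-PRMT5/TCL1 mice. No p is given for the ratio, since its genes were chosen with results of these data known. With each gene divided by its exon length the ratio ran from 0.0217 to 0.599 and had the same lowest and highest mouse.

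**Figure D3:**
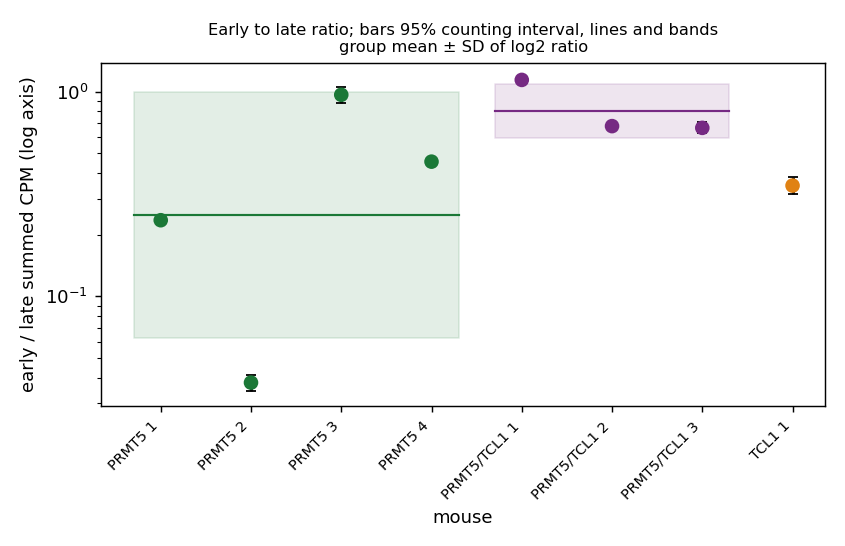
Early to late ratio of summed CPM (vertical, log axis) in each mouse (horizontal), with bars for the 95% counting interval and, for the replicated groups, a line and band for the mean and SD of the log2 ratio. The 3 Eµ-PRMT5/TCL1 mice sit between 0.665 and 1.14, and the 4 Eµ-PRMT5 mice spread from 0.0378 to 0.964.

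Within each class the genes kept similar proportions. Mpo supplied 59.1% to 76.9% of the early CPM of a mouse and Elane 18.2% to 27.2%, while Prtn3 supplied 2.95% to 9.14%. Ctsg varied most in relative terms, from 0.394% in Eµ-PRMT5 1 to 5.03% in Eµ-PRMT5 2. In the late class Ngp supplied 48.7% to 62.4%, Ltf 8.94% to 21.0% and S100a8 7.35% to 17.2%. These shares are of CPM and are not corrected for length.

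The shapes of the profiles were compared by the root mean square difference between 2 genes' log2 CPM over the 8 mice, each centred on its own mean, so that 0 means identical shape. Its median was 0.40 over the 15 pairs of late genes, with a range of 0.18 to 0.65. Over the 6 pairs of early genes it was 0.85, from 0.27 to 1.14. Over the 24 pairs of an early and a late gene it was 1.53, from 1.28 to 1.78, so the closest such pair was farther apart than any pair within a class. The closest pairs were Camp and Ngp at 0.18, Lcn2 and S100a8 at 0.27 and Elane and Mpo at 0.27. The neighbours Elane and Prtn3 stood at 0.49 and the neighbours S100a8 and S100a9 at 0.34. Ctsg was 1.09 to 1.14 from the other early genes. The points are 8 libraries of unequal depth, and these distances are a description with no test.

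**Figure D4:**
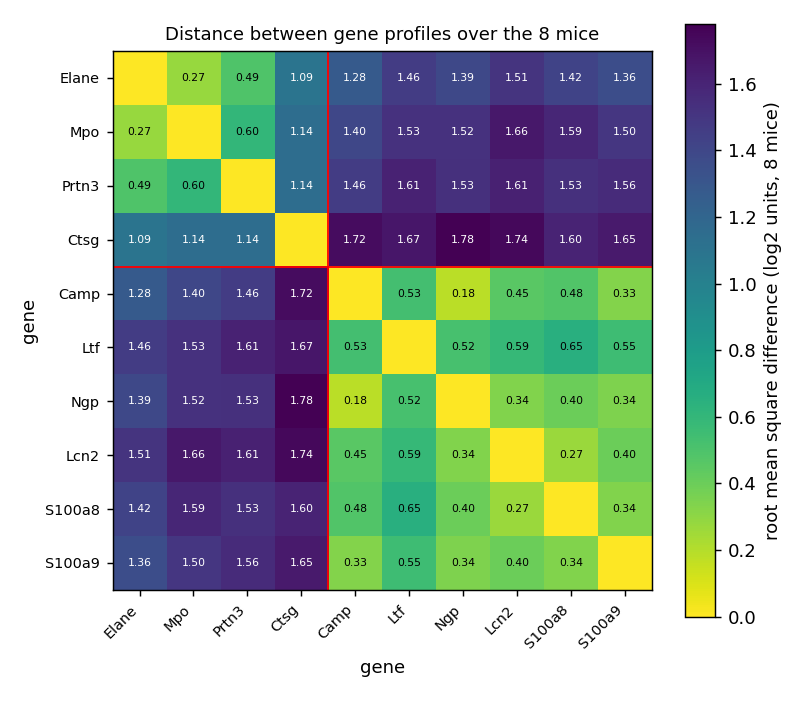
Root mean square difference in log2 units (color, and printed in each cell) between the centred profiles of each pair of the 10 genes (both axes) over 8 mice, with red lines between the early and late class. Within-class cells of the late class lie at 0.18 to 0.65 and between-class cells at 1.28 to 1.78, and the Ctsg row stands apart from the other early genes.

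Among the other genes tested, those nearest to each class were found by the same distance. Ms4a3, a membrane protein of granulocyte and monocyte progenitors, was nearest to the early mean profile at 0.67. Its levels were 26.2, 4.12, 4.33 and 103 CPM across Eµ-PRMT5 mice, 82.0, 51.2 and 10.1 CPM in Eµ-PRMT5/TCL1 mice and 4.06 CPM for Eµ-TCL1. Ramp1, a receptor activity-modifying protein, followed at 0.79. Hba-a1, an alpha globin gene whose near-identical copy Hba-a2 can share its reads, was at 0.86. The interferon-induced GTPase gene Gbp6 was at 0.88 and the receptor gene Gpr141 at 0.89. A gene without variation would be at 2.03 and the median tested gene was at 2.13.

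Anxa1, the anti-inflammatory phospholipid-binding protein annexin A1, was nearest to the late mean profile at 0.32. It had 165, 210, 37.8 and 461 CPM across Eµ-PRMT5 mice, 514, 275 and 42.3 CPM in Eµ-PRMT5/TCL1 mice and 43.3 CPM for Eµ-TCL1. The next were Pmaip1 (0.53), the apoptosis gene Noxa, the C-type lectin genes Clec4a2 (0.54) and Clec5a (0.57), and the kinase gene Mapk13 (0.62), with the median tested gene at 1.66. Pmaip1 is not specific to neutrophils.

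The first group comparison asks how adding TCL1 to PRMT5 bears on these genes. None of the 10 genes passed the threshold when Eµ-PRMT5/TCL1 mice were compared with Eµ-PRMT5 mice (edgeR's quasi-likelihood test, Benjamini-Hochberg adjusted p of 0.05 or less and at least 4-fold), against 0% of all tested genes in either direction. By edgeR 126 genes in all were higher and 160 lower with an unadjusted p under 0.05. DESeq2 called none of the 10 genes, against 3 genes higher (0.0228%) and 1 lower (0.00759%) of all tested, and gave none of the 10 an unadjusted p under 0.05, against 1.11% of all genes in the higher direction. Fold changes were larger for the early genes, with a median log2 fold change of 1.85, than for the late genes, with 0.19, and the median of all genes was -0.09. The early genes were all higher on average: Elane by 1.52 ± 0.97 (SE), Mpo by 2.13 ± 0.94, Prtn3 by 1.83 ± 1.07 and Ctsg by 1.86 ± 1.17. By edgeR's quasi-likelihood test Mpo alone had an unadjusted p under 0.05, as did 0.957% of all genes in that direction, and the Benjamini-Hochberg adjusted p was 1 for all 10.

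For the late genes the log2 fold change was 0.94 ± 0.73 (SE) for Ltf, 0.41 ± 0.78 for Camp and 0.30 ± 0.83 for Ngp. It was 0.08 ± 0.83 for Lcn2, -0.01 ± 0.89 for S100a8 and 0.01 ± 0.77 for S100a9. The errors allow differences of either sign for these genes. They also do so for the early genes Elane, Prtn3 and Ctsg (unadjusted edgeR p 0.142, 0.113 and 0.136). The groups overlapped for all 10 genes, and 1.35% of all genes were higher and 1.59% lower without overlap. Leaving out either of 2 mice moved the early genes far, in opposite directions. Without Eµ-PRMT5 4 the log2 fold changes of Elane, Mpo, Prtn3 and Ctsg were 2.94, 3.17, 3.66 and 4.72. All 4 early genes and no late gene then had an unadjusted edgeR p under 0.05, the smallest adjusted p being 0.384. Of all genes in that fit, 392 of 13156 were higher with such a p, against 126 of 13173 with every mouse kept. Without Eµ-PRMT5/TCL1 1 the fold changes of the 4 early genes were 0.56, 1.08, 0.70 and 0.62, with no granule gene under 0.05. Without Eµ-PRMT5/TCL1 3, Mpo, Prtn3 and Ltf were under 0.05, as were 133 of 13160 genes in the higher direction. Without Eµ-PRMT5 1, 2 or 3 or Eµ-PRMT5/TCL1 2 no granule gene was.

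The remaining comparisons rest on 1 Eµ-TCL1 mouse, which the fit assumes to vary as the replicated groups do, and they share that mouse. All 10 genes were on average higher with Eµ-PRMT5 alone than with Eµ-TCL1 alone, with log2 fold changes from 1.64 (Ctsg) to 3.42 (Prtn3) and a median of 2.09 against 0.04 for all genes. None passed the edgeR threshold (0% of all genes either way, with an unadjusted p under 0.05 for 258 higher and 635 lower), and the smallest edgeR adjusted p was 0.709. None of the 10 had an unadjusted p under 0.05, against 1.96% of all genes in the higher direction. By DESeq2, Ltf, Ngp and Lcn2 had one, against 4.9% of all genes, and none was called, against 0.0304% higher and 0.106% lower. Only for Prtn3 were all 4 Eµ-PRMT5 mice above the Eµ-TCL1 mouse, by as little as 4.75 against 4.60 CPM, and 17.9% of all genes showed that arrangement. The direction of Ctsg turned without Eµ-PRMT5 4, to -1.22. The study names Elane among the genes higher in Eµ-PRMT5 than in Eµ-TCL1 tumors, at an adjusted p under 0.05 and over 4-fold. It used more Eµ-TCL1 mice than the 1 available here. The log2 fold change of Elane here was 2.20, and the 2 results rest on unlike sets of mice.

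In Eµ-PRMT5/TCL1 mice against the Eµ-TCL1 mouse the log2 fold changes ran from 1.99 (S100a9) to 5.25 (Prtn3), with a median of 3.85 for the early and 2.42 for the late genes and -0.07 for all genes. None passed the edgeR threshold (0% of all genes either way, with an unadjusted p under 0.05 for 231 higher and 571 lower), and the smallest edgeR adjusted p was 0.778. Mpo and Prtn3 had an unadjusted p under 0.05, as did 1.75% of all genes in the higher direction. DESeq2 gave 7 of the 10 an unadjusted p under 0.05, against 3.61% of all genes, and called none, against 0.0683% higher and 0.0531% lower. All 3 Eµ-PRMT5/TCL1 mice were above the Eµ-TCL1 mouse for Elane, Mpo, Prtn3, Ctsg, Ltf and Lcn2, 6 of 10 genes, an arrangement found in 27.6% of all genes.

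**Figure D5:**
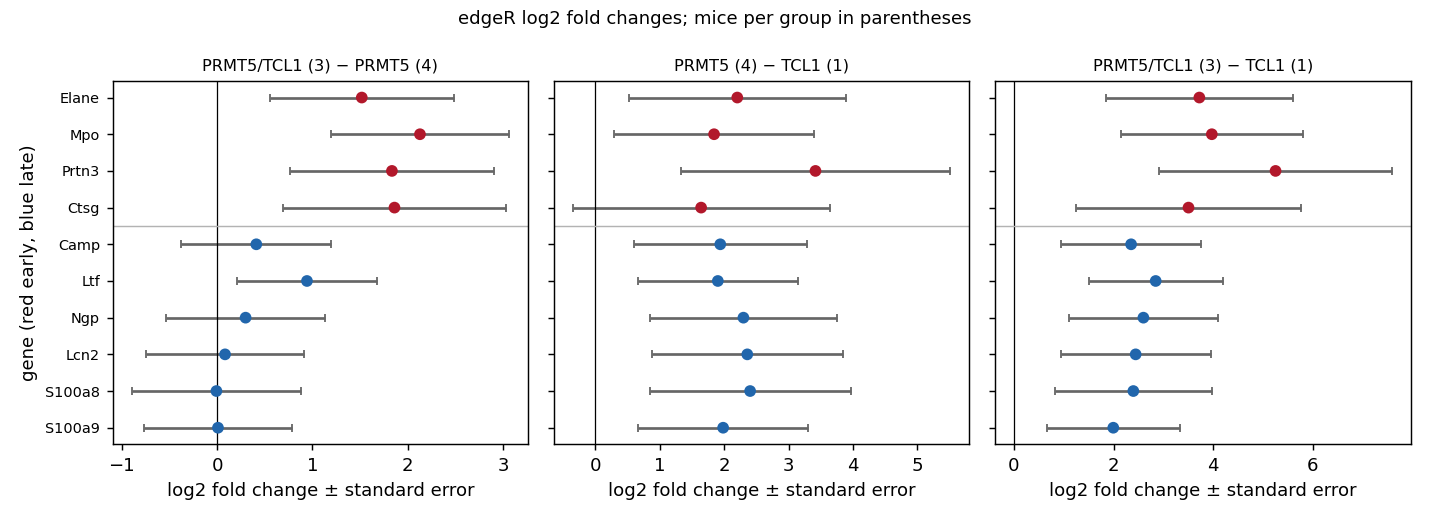
Log2 fold changes from edgeR (horizontal, points) with standard errors (bars) for the 10 genes (vertical; red early, blue late) in the 3 group comparisons, with the number of mice in each group above the panels. In the left panel the early genes lie at 1.52 to 2.13 and the late genes at -0.01 to 0.94; the panels against the single Eµ-TCL1 mouse have wider errors.

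Other genes of the granulocyte path were taken from listed markers. Of 10 other promyelocyte genes, 0 passed the edgeR threshold in any comparison; in Eµ-PRMT5/TCL1 against Eµ-PRMT5 mice their median log2 fold change was 0.32 and none had an unadjusted p under 0.05 by either tool. Their summed level lay between 1156 and 3695 CPM for the Eµ-PRMT5 group and between 1560 and 3431 CPM in Eµ-PRMT5/TCL1 mice, and was 695 CPM for Eµ-TCL1. Ctsc, the protease that activates the granule serine proteases, was its largest component, from 409 to 2359 CPM. Of 26 other genes of late granules and mature neutrophils, 21 could be tested and 0 passed in any comparison. Their median in Eµ-PRMT5/TCL1 against Eµ-PRMT5 mice was -0.30, and 9 of the 21 were higher. Mmp8, neutrophil collagenase, was the only 1 of the 21 with an unadjusted p under 0.05 by edgeR. It had a log2 fold change of -2.03 ± 0.86 (SE) and an adjusted p of 1. Of all 13173 genes, 160 were lower with such an unadjusted p.

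Markers of mature neutrophils ran from near 0 to well expressed. Chil3, a chitinase-like protein of neutrophils and macrophages, had 52.9 to 2640 CPM, Cd177, a neutrophil surface protein, 22.9 to 153 CPM and Csf3r, the receptor for granulocyte colony-stimulating factor, 10.7 to 98.7 CPM. Ly6g, the surface antigen of mouse neutrophils, ranged from 0 to 12.5 CPM with 0 counts in Eµ-PRMT5 1, a mouse with 1366 CPM of Ngp. The listed markers did not move together in that mouse: Cybb, of the same list, had its highest level there, 1810 CPM. Itgam, which encodes the integrin CD11b, ranged from 0 to 1.89 CPM. Cxcr2, the chemokine receptor of mature cells, had no value in Eµ-PRMT5 3 and 11 to 58 counts in the other libraries. Of the 8 granulocyte transcription factors listed, Cebpa and Cebpb lacked a value in some library and the other 6 were tested. Cebpe, the factor required for specific granules, had 17.7, 9.02, 0 and 7.49 CPM across Eµ-PRMT5 mice and 20.2, 9.01 and 1.69 CPM in Eµ-PRMT5/TCL1 mice. It was 0 in Eµ-PRMT5 3, the mouse with the lowest late sum. Spi1, which encodes PU.1 and is also expressed in B cells and monocytes, had a log2 fold change of 1.21 ± 0.41 (SE) between the replicated groups, with an unadjusted p under 0.05 and an adjusted p of 1 by edgeR.

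Markers of other cells moved with the granule genes in some mice. The 9 monocyte and macrophage genes measured in every library (of 14 listed) summed to 1194 to 3728 CPM across Eµ-PRMT5 mice and to 8004, 2897 and 1053 CPM in Eµ-PRMT5/TCL1 mice, with 1182 CPM for Eµ-TCL1. The 3 mice with the highest monocyte sum, Eµ-PRMT5/TCL1 1 and 2 and Eµ-PRMT5 4, were also the 3 with the highest early and late sums. Most of that sum was Lyz2, lysozyme, at 708 to 6224 CPM. Csf1r, Cd68 and Ly6c2 had the same 3 highest mice as the sum, and Cd14 and Ccr2 were also highest in Eµ-PRMT5/TCL1 1. Adgre1 was highest in Eµ-PRMT5 2 (72.7 CPM), Vcam1 in Eµ-PRMT5 3 (38.3 CPM) and Mertk in the Eµ-TCL1 mouse (28.4 CPM). The other 5 of the 14 listed, C1qa, C1qb, C1qc and Cd5l among them, lacked a value in some library. The 8 erythroid genes measured, of 13 listed, summed to 57.2 to 663 CPM across Eµ-PRMT5 mice, 108 to 413 CPM in Eµ-PRMT5/TCL1 mice and 78.7 CPM for Eµ-TCL1. The 10 B-cell genes summed to 2118 CPM in Eµ-PRMT5 4 and 3901 CPM in Eµ-PRMT5/TCL1 1, the 2 lowest of 8, and to 4531 to 9278 CPM in the others. The part of these cells in the granule gene levels was not tested.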

How the data were processed

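RNA was measured in 8 splenic B-cell libraries. Per the study's methods, cDNA was preamplified (SMARTer v4) and made into Nextera XT libraries, whereas the labels describe a stranded mRNA kit. The values are counts per gene symbol as deposited; the authors' processing notes name GRCm38, Subread, featureCounts and DESeq2 1.20.0. The aligner, annotation and use of strand are not given in the sources used here. The study's methods also name the CLEAR workflow for these libraries, which uses gene coverage to pick transcripts that can be quantified reliably. The matrix has 36919 empty cells and 10783 cells of 0. What an empty cell means, and whether it comes from that workflow, is not stated.

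Genes with a value in all 8 libraries (14072) were kept and filtered with filterByExpr, leaving 13173. edgeR 4.0.16 in R 4.3.3 (TMM factors, quasi-likelihood test over all 8 libraries by group, prior count 2, Benjamini-Hochberg adjustment) was the main test, called at an adjusted p of 0.05 and 4-fold. It was also run on counts simulated from its own fit with large planted changes. That run does not show that smaller changes would be found. DESeq2 1.42.0, other scalings, other filters, missing values as 0, each library left out and a replicate block were alternatives. Samples were grouped by their labels. The p-values set a group difference against the spread between mice of the replicated groups, since Eµ-TCL1 has 1 mouse. The SE of an edgeR log2 fold change was derived from the test, as its absolute value over the square root of the F statistic. Class ratios were computed with Wilson 95% intervals from the summed counts (scipy 1.17.1). Genes nearest to a class were the 5 with the smallest root mean square difference of centred log2 CPM. Promoters come from RefSeq, gene positions from GENCODE vM21. The granule genes, marker lists and tests were chosen with earlier results of these data known.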

Additional observations from a re-analysis of the deposited data

Results flagged for a closer look

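Ctsg in Eµ-PRMT5 4 stood apart from the other mice of its group. It had 77.9 CPM against 2.03, 3.96 and 2.96 CPM in Eµ-PRMT5 1, 2 and 3. On the log2 scale with the prior count of 2, its gap to the nearest of them was 0.830 of the group's whole range. That share was just over Dixon's critical value for a group of 4. Taken from the log2 of the printed CPM without a prior count, the share is under the critical value. The flag therefore depends on the prior count, which shifts low values such as the 10 counts in Eµ-PRMT5 1. Of 11 values examined in this way, the 10 genes and the class ratio, 1 was over its limit, and chance gives about 1 in 20. The same mouse had the highest level of its group for 9 of the 10 granule genes, the exception being Ltf, and the lowest Cd79a (411 CPM); the part of either in the Ctsg value was not tested.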

How the results depend on the processing

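The count of granule genes past the threshold was 0 in all 3 comparisons under every alternative run. In Eµ-PRMT5/TCL1 against Eµ-PRMT5 mice every edgeR alternative called 0 of all tested genes in either direction. DESeq2 called 3 of all genes higher and 1 lower. A count of 0 therefore says little about the granule genes in particular. Of 440 alternative fold changes, 420 kept their direction and 20, over 6 genes and comparisons, did not; the cause was not tested. In Eµ-PRMT5/TCL1 against Eµ-PRMT5 mice, S100a9 turned to -0.018 with DESeq2 and -0.063 with missing values as 0. S100a8 turned to 0.14 with upper-quartile factors, 0.14 with library size only and 0.067 with at least 10 counts in every library. With each mouse left out in turn, the log2 fold change ranged from -0.14 to 0.92 for Camp, -0.31 to 0.81 for Ngp, -0.60 to 0.65 for Lcn2, -0.56 to 0.94 for S100a8 and -0.51 to 0.70 for S100a9. Ctsg in Eµ-PRMT5 against Eµ-TCL1 ranged from -1.22 to 2.16. The log2 ratio difference ranged from 0.77 to 2.33 for Eµ-PRMT5/TCL1 minus Eµ-PRMT5 and 0.95 to 1.34 for Eµ-PRMT5/TCL1 minus Eµ-TCL1. For Eµ-PRMT5 minus Eµ-TCL1 (-0.47) it ranged from -1.12 to 0.43, turning without Eµ-PRMT5 2.

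Whether same-numbered mice were matched is not stated in the sources used here. The correlations of their deviations were low, at -0.02, 0.15 and 0.16. Each Eµ-PRMT5/TCL1 mouse still correlated best with the Eµ-PRMT5 mouse of its number. In the other direction, Eµ-PRMT5 1 correlated best with Eµ-PRMT5/TCL1 2 (0.11). These values do not settle whether a block by number is warranted. With the replicate block, which leaves out Eµ-PRMT5 4 and the Eµ-TCL1 mouse, 8 of 10 genes had an unadjusted edgeR p under 0.05. So did 495 of all 12550 genes in the higher direction, against 126 of 13173 in the main fit. The smallest adjusted p of the 10 was 0.0965, S100a8 was at 1.05, and 0 of all genes were called. The same 6 mice without the block, a setting chosen after seeing the data, gave 4 of 10, beside 374 of 12550 genes higher. There the smallest adjusted p of the 10 was 0.387 and S100a8 was at 0.95. Groups of 3 or 4 mice, a single Eµ-TCL1 mouse and low counts of Ctsg, down to 10, limit the precision.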
